A study of Mus musculus with 8 samples.

Results

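The fibrous sheath genes are 9 mouse genes whose products are known as parts of the fibrous sheath of the sperm tail or as its partners: *Akap4*, *Akap3*, *Fscb*, *Cabyr*, *Ropn1*, *Ropn1l*, *Spa17*, *Fsip1* and *Fsip2*. They were taken by symbol, by a rule that uses no measured value but was set with earlier results of these data known, and all 9 were found among the 19906 genes of the table. RNA of whole testes was sequenced from male mice aged 2 months, with 1 library per mouse, to compare gene expression with and without *Tmem232*, which encodes a predicted transmembrane protein. There were 4 libraries labelled Tmem232-/- and 4 labelled Tmem232+/+. The mutant mice came from CRISPR-Cas9 injection into fertilised C57BL/6 oocytes, with a deletion in *Tmem232* that is carried by every cell of the animal and shifts the reading frame.

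The fibrous sheath surrounds the axoneme and the outer dense fibres in the principal piece of the sperm tail, where a pair of longitudinal columns is joined by ribs. It is a scaffold for the cAMP-dependent protein kinase A (PKA), for glycolytic enzymes and for proteins that act in capacitation, the maturation that lets sperm fertilise. Most of its parts are made in spermatids, the haploid germ cells that build the tail. In whole testis, a changed share of a cell type and a changed amount of RNA per cell cannot be told apart, in either direction.

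Total counts lay between 15428421 and 16350871 per library. Levels are given as counts per 1000000 (CPM), scaled between libraries by the TMM method, and the replicate numbers are those of the labels. *Tmem232* itself was not lower in the libraries labelled Tmem232-/-, at 131.1 ± 11.8 CPM (SD, n = 4) against 108.9 ± 2.08 CPM, a log2 fold change of 0.27 (SE 0.0721, edgeR adjusted p = 0.0335), a call that was lost without any 1 of 4 libraries. The table gives 1 count for the whole gene and does not separate the deleted exons, so this count did not check the labels, and each direction below rests on them. A mean transcript length per count, which is the length implied by the counts and the FPKM averaged over all counts, ranged from 3060 to 3338 bases between libraries. It was shortest in Tmem232+/+ replicate 3 and in Tmem232-/- replicates 4 and 1.

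Of the 9 genes, 7 were higher in the libraries labelled Tmem232-/- at an edgeR adjusted p under 0.05 and 0 were lower, where 10.3% of the 15787 tested genes were higher and 1.46% were lower. The groups did not overlap for 6 of the 9 genes, all of them higher. Among all tested genes, 11.8% were higher and 6.88% lower without overlap. At least a 2-fold difference was reached by 5 genes (*Akap4*, *Fscb*, *Ropn1*, *Akap3* and *Cabyr*), against 5.23% of all tested genes. The median log2 fold change of the 9 genes was 1.2, while that of all tested genes was -0.054 with a 10th to 90th percentile range from -0.26 to 0.56.

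**Figure D1:**
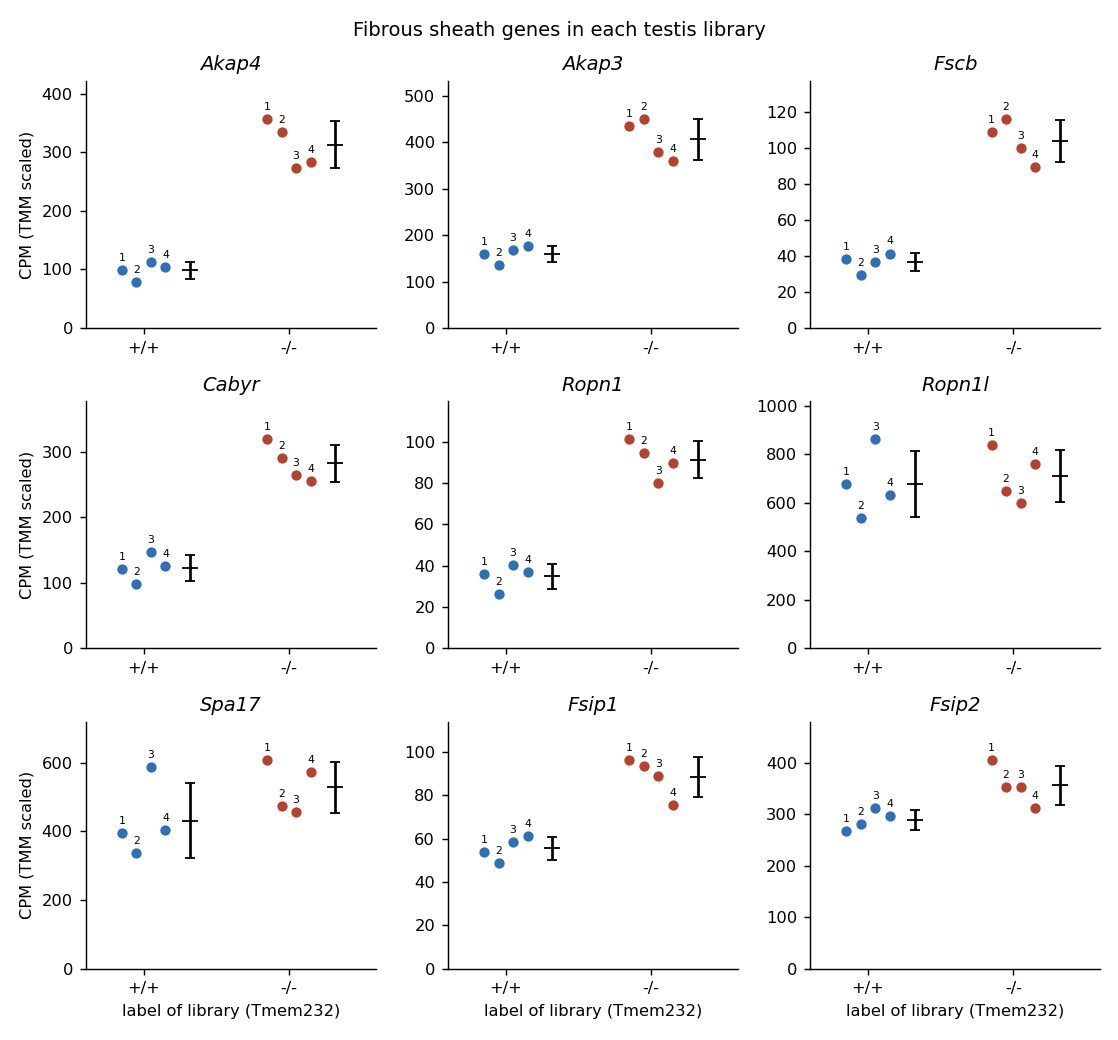
CPM of each of the 9 genes in each library, with 1 point per mouse and a line at each group mean. The points of the libraries labelled Tmem232-/- lie above all points of the other group in 6 panels, and the groups mix for *Ropn1l*, *Spa17* and *Fsip2*.

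*Akap4* encodes the most abundant structural protein of the sheath, which anchors the regulatory subunits of PKA. The gene lies on chromosome X from 7067515 to 7078609 of the plus strand (GRCm38.p6). Its level was 357.3, 334.9, 273.8 and 283.9 CPM in the libraries labelled Tmem232-/- and 99.1, 78.5, 112.1 and 103.8 CPM in those labelled Tmem232+/+. Every library of the first group stood more than 2-fold above the highest of the second. The means were 312.5 ± 40.1 and 98.4 ± 14.3 CPM (SD, n = 4 each), with a log2 fold change of 1.67 (SE 0.121, 95% interval 1.40 to 1.93, edgeR adjusted p = 2.06e-05). An exact two-sided permutation test gave p = 0.029, the smallest p that 4 libraries against 4 can reach.

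*Akap3*, on chromosome 6 from 126853098 to 126874308 of the plus strand, encodes the other A-kinase anchor of the sheath, which is laid down before Akap4 during tail formation. It measured 436.1, 451.3, 378.9 and 360.9 CPM in the libraries labelled Tmem232-/- against 159.8, 136.5, 168.3 and 176.0 CPM. As for *Akap4*, every library of the first group was above every library of the second. The means of 406.8 ± 43.7 and 160.2 ± 17.1 CPM gave a log2 fold change of 1.34 (SE 0.0997, edgeR adjusted p = 2.11e-05). The rise was larger for *Akap4* than for *Akap3*. The log2 ratio of *Akap4* to *Akap3* within a library was -0.29, -0.43, -0.47 and -0.35 in the libraries labelled Tmem232-/- against -0.69, -0.80, -0.59 and -0.76 in the others, without overlap. The difference was 0.33 (SE 0.062, exact permutation p = 0.029). All 4 pairs of genes compared in this way had this smallest p, so adjustment over them could not change it. The pairs were chosen with earlier results of these data known, so their p-values describe the separation and are no independent support. Within a library, scaling between libraries has no part in such a ratio.

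*Fscb* encodes a calcium-binding protein of the sheath that binds Cabyr, from a single exon on chromosome 12 from 64471333 to 64474898 of the minus strand. Its 4 values in the libraries labelled Tmem232-/- were 108.7, 116.1, 99.9 and 89.1 CPM, and those labelled Tmem232+/+ had 38.4, 29.5, 36.5 and 41.3 CPM. The lowest value of the first group was still more than 2-fold above the highest of the second. The group means were 103.5 ± 11.6 and 36.4 ± 4.99 CPM, a fold of 2.84 and a log2 fold change of 1.51 (SE 0.112, edgeR adjusted p = 2.11e-05).

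The bases before the start of these 3 genes are shown because they hold a common short sequence, next to those of *Ropn1l*, a member that did not pass the test. They are the 120 bases before the RefSeq start on GRCm38.p6, 5′ to 3′ on the strand of the gene: chrX:7067395-7067514 (plus) for *Akap4*, chr6:126852978-126853097 (plus) for *Akap3*, chr12:64474899-64475018 (minus) for *Fscb* and chr15:31453690-31453809 (minus) for *Ropn1l*. Capitals mark TGATGTCA in the first 3 and each CG in *Ropn1l*.
Akap4: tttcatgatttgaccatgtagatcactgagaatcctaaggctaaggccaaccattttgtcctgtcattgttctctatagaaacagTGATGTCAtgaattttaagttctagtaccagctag
Akap3: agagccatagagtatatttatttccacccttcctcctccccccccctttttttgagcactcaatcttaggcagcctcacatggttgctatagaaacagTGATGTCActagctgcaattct
Fscb: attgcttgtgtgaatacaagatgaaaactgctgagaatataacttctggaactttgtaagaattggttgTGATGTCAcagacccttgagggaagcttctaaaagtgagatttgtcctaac
Ropn1l: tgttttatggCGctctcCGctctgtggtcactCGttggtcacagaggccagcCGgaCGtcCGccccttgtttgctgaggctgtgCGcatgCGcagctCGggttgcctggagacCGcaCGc

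The RefSeq promoter table held windows for 7 of the 9 genes, and the 250 bases before the start were searched on both strands in all 32851 windows. TGATGTCA (TGACATCA on the other strand) was chosen after the sequences had been seen. It began 35 bases before the start of *Akap4*, 22 bases before that of *Akap3* and 51 bases before that of *Fscb*, and it was present in 2.93% of all windows. It was in no window of *Ropn1* and *Fsip2*, which were also called higher, nor of *Ropn1l* and *Spa17*, nor in the second window of *Akap4*. *Akap4* and *Akap3* shared the 20-base run ctatagaaacagtgatgtca around it, which was found upstream of 2 of the 27025 genes of the promoter table, these 2 alone. The palindrome TGACGTCA, the full cAMP-response element, was in none of the members' windows and in 1.55% of all windows. Its core TGACG, which overlaps the palindrome, was in the window of *Fsip2* on the other strand and in 17.77% of all windows. TATAAA was in none of the members' windows and in 12.37% of all. The 250 bases held 0 CG in *Akap4*, *Akap3* and *Fscb*, 2 in *Ropn1*, 18 in *Ropn1l*, 13 in *Spa17* and 11 in *Fsip2*, against a median of 6 over all windows. These are matches of letters, and binding of a factor was not measured.

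*Cabyr* encodes a calcium-binding protein that is phosphorylated on tyrosine during capacitation and carries a domain like that of the PKA regulatory subunit RII, through which such proteins dock to A-kinase anchors. The gene is on chromosome 18 from 12739980 to 12755151 of the plus strand. The libraries labelled Tmem232-/- had 319.3, 289.9, 265.0 and 255.6 CPM and the others 120.4, 97.8, 146.7 and 125.5 CPM. No library of one group reached the range of the other. The means were 282.5 ± 28.5 and 122.6 ± 20.1 CPM, with a log2 fold change of 1.20 (SE 0.118, edgeR adjusted p = 5.2e-05).

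*Ropn1* encodes ropporin, another protein with the RII-like docking domain, which binds rhophilin. It lies on chromosome 16 from 34649840 to 34678610 of the plus strand. Its level was 101.3, 94.7, 79.9 and 89.5 CPM in the libraries labelled Tmem232-/- and 35.9, 26.5, 40.3 and 37.1 CPM in the others. The groups were again far apart, without overlap. Means of 91.3 ± 9.03 and 34.9 ± 5.96 CPM gave a log2 fold change of 1.39 (SE 0.122, edgeR adjusted p = 3.24e-05).

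*Ropn1l*, the paralog of *Ropn1* on chromosome 15 from 31441210 to 31453689 of the minus strand, did not differ beyond the spread of the libraries. It had 837.3, 648.7, 600.2 and 759.7 CPM in the libraries labelled Tmem232-/- and 679.4, 537.1, 862.9 and 633.0 CPM in the others. The highest and the lowest of the 8 values were both in the Tmem232+/+ group. The log2 fold change was 0.07 (SE 0.143, 95% interval -0.25 to 0.38, edgeR adjusted p = 0.796), and it changed sign to -0.02 without Tmem232-/- replicate 1 and to -0.03 without Tmem232+/+ replicate 2. It moved furthest, to 0.24, without Tmem232+/+ replicate 3, still short of the threshold. The interval leaves out the rise of *Ropn1*. The log2 ratio of *Ropn1* to *Ropn1l* was -3.05, -2.78, -2.91 and -3.09 in the libraries labelled Tmem232-/- against -4.24, -4.34, -4.42 and -4.09 in the others. The difference of 1.32 (SE 0.0995, exact permutation p = 0.029) was without overlap between groups.

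*Spa17* encodes a protein with the RII-like domain and a calmodulin-binding motif, on chromosome 9 from 37603294 to 37613828 of the minus strand. Its values were 609.3, 473.7, 455.9 and 573.9 CPM in the libraries labelled Tmem232-/- and 396.1, 338.0, 587.8 and 403.9 CPM in those labelled Tmem232+/+. Tmem232+/+ replicate 3 lay among the higher libraries of the other group, while the other 3 libraries of its group were below all 4. The log2 fold change of 0.29 (SE 0.158, 95% interval -0.06 to 0.64) did not pass the test (edgeR adjusted p = 0.281). Without Tmem232+/+ replicate 3 it was 0.51 (edgeR adjusted p = 0.00724). Exons of *Spa17* overlap those of *Siae* on the opposite strand, and 29.52% of the 50-base runs of its longest transcript also occur in that gene. The sources do not state that counting used strand, so reads of the shared stretch cannot be told apart. *Siae* was at 24.3 ± 2.75 and 22.3 ± 4.55 CPM.

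*Cabyr* and *Spa17*, which share the RII-like domain, also parted within libraries. Their log2 ratio was -0.93, -0.71, -0.78 and -1.17 in the libraries labelled Tmem232-/- against -1.72, -1.79, -2.0 and -1.69 in the others. The difference was 0.90 (SE 0.124, exact permutation p = 0.029), without overlap between groups.

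*Ropn1l* and *Spa17* moved together from library to library, and both were high in the 3 libraries with the shortest mean length per count. Tmem232+/+ replicate 3, with 3060 bases, had 862.9 CPM of *Ropn1l*, and Tmem232+/+ replicate 2, with 3338 bases, had 537.1 CPM. With the mean length as a covariate, an alternative chosen after seeing the data and computed from the same counts, *Spa17* had a log2 fold change of 0.31 (SE 0.0538, edgeR adjusted p = 0.0011) and *Ropn1l* one of 0.08 (SE 0.0557, edgeR adjusted p = 0.323). Both fold changes stayed close to those without the covariate, and both SEs fell. This was not particular to the 2 genes, as the SEs of the other members fell too. That of *Akap4* went from 0.121 to 0.0963 and that of *Fscb* from 0.112 to 0.104. Over all tested genes, the calls rose from 1633 to 2125 higher and from 230 to 1230 lower. Whether RNA length or quality had a part in these levels was not tested.

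**Figure D2:**
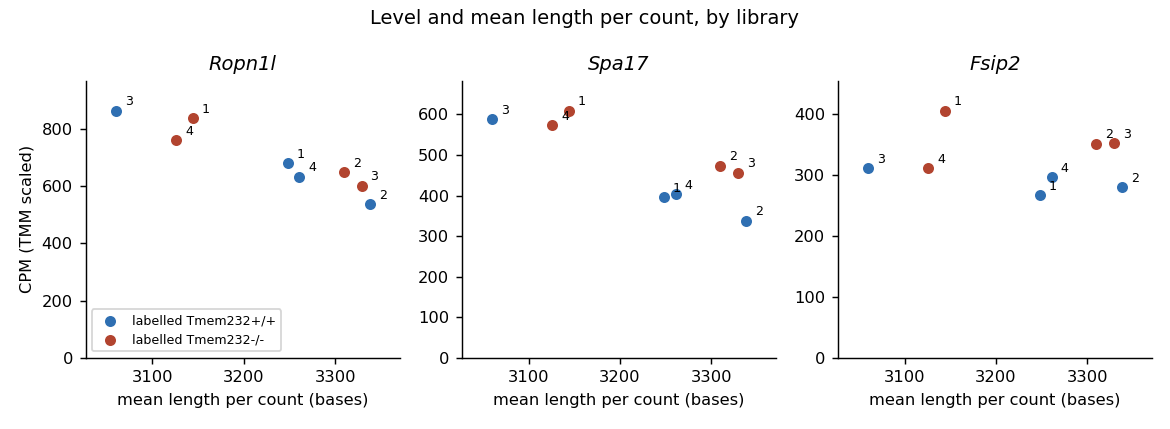
CPM of *Ropn1l*, *Spa17* and *Fsip2* in each library (vertical axis) against the mean length per count in bases (horizontal axis), with replicate numbers at the points. *Ropn1l* and *Spa17* are highest in the libraries of 3060 to 3144 bases, and *Fsip2* shows no such order.

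*Fsip1* and *Fsip2* encode proteins that were named as interactors of the sheath, and Fsip2 is a very large protein whose loss in men is a known cause of malformed tails. *Fsip1*, on chromosome 2 from 118130261 to 118256987 of the minus strand, had 96.4, 93.4, 88.7 and 75.4 CPM in the libraries labelled Tmem232-/- and 53.9, 48.9, 58.5 and 61.0 CPM in the others. The groups did not overlap. The log2 fold change was 0.67 (SE 0.0941, edgeR adjusted p = 0.000497), smaller than that of the 5 genes above. The transcript Gm29232 overlaps *Fsip1* on the same strand and shares 4.14% of its 50-base runs.

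*Fsip2*, on the same chromosome from 82943609 to 83008934 of the plus strand, was at 405.8, 351.9, 352.7 and 311.5 CPM in the libraries labelled Tmem232-/- and at 266.6, 280.5, 311.8 and 296.7 CPM in the others. The lowest library of the first group and the highest of the second were level. The log2 fold change was 0.30 (SE 0.0872, 95% interval 0.11 to 0.49) with an edgeR adjusted p of 0.0479, close to the threshold, and 11 of 19 alternative settings lost the call, among them the loss of any 1 of 6 libraries (0.23 to 0.31). An exact permutation test gave p = 0.057. The log2 ratio of *Fsip2* to *Fsip1* was 2.07, 1.91, 1.99 and 2.05 in the libraries labelled Tmem232-/- against 2.31, 2.52, 2.42 and 2.28 in the others, a difference of -0.37 (SE 0.065, exact permutation p = 0.029). *Fsip1* therefore rose by more than *Fsip2* within the same libraries.

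**Figure D3:**
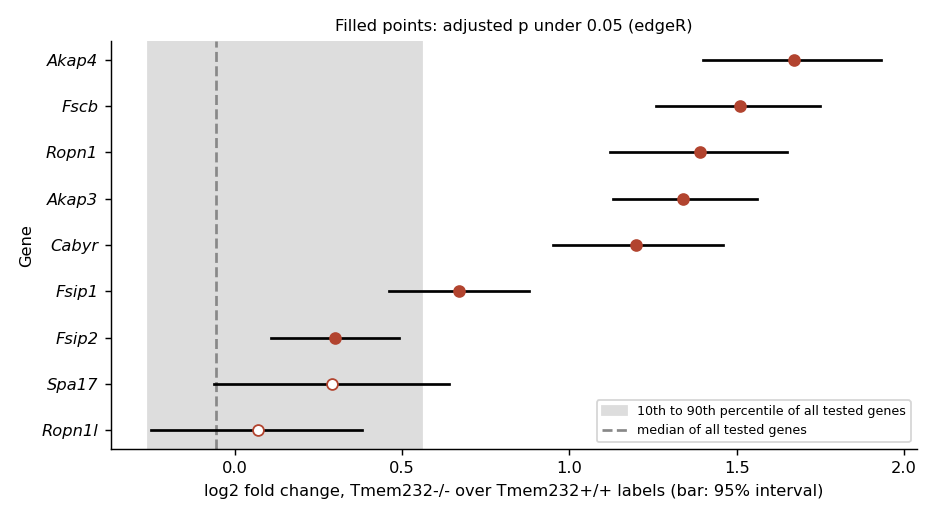
Log2 fold change of each of the 9 genes, libraries labelled Tmem232-/- over those labelled Tmem232+/+, with bars for the 95% interval, and the 10th to 90th percentile of all tested genes as a grey band. *Akap4* is highest at 1.67 and *Ropn1l* lowest at 0.07, and the bars of *Ropn1l* and *Spa17* cross 0.

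**Figure D4:**
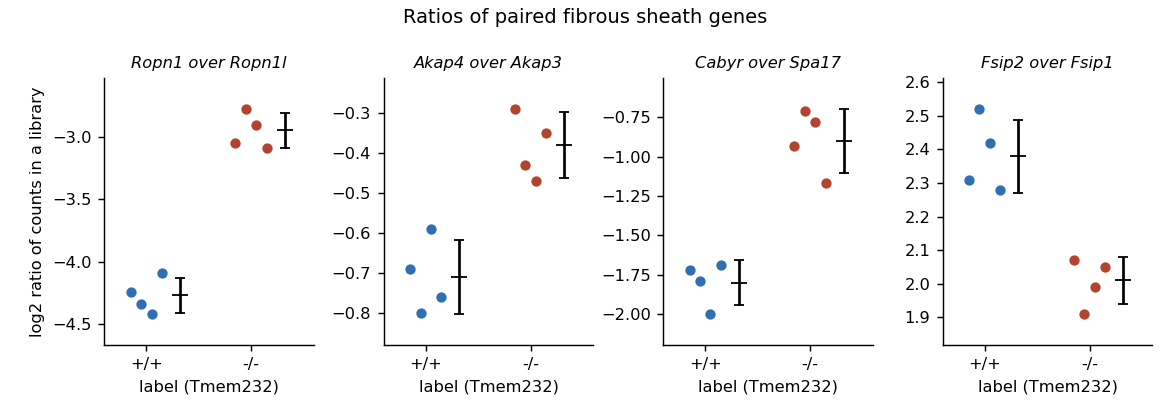
Log2 ratio of counts within each library for the 4 pairs of genes, with 1 point per mouse. The groups are apart in all 4 panels, with the libraries labelled Tmem232-/- higher for 3 pairs and lower for *Fsip2* over *Fsip1*.

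The order of the libraries within a group varied between genes. Tmem232+/+ replicate 2 was the lowest of its group for 8 of them, *Fsip2* being the exception, and Tmem232-/- replicate 1 was the highest of its group for 7, with *Akap3* and *Fscb* highest in replicate 2. The highest library labelled Tmem232+/+ was replicate 3 for 6 genes and replicate 4 for *Akap3*, *Fscb* and *Fsip1*. Tmem232-/- replicate 4 was the lowest of its group for 5 genes but second to replicate 1 for *Ropn1l* and *Spa17*, for which replicate 3 was the lowest, as it was for *Akap4* and *Ropn1*. Together the 9 genes took 3271.7, 2854.5, 2594.9 and 2799.7 CPM in the libraries labelled Tmem232-/- and 1849.5, 1573.4, 2324.9 and 1878.3 CPM in those labelled Tmem232+/+. *Ropn1l* and *Spa17* made up 39.3% to 47.6% of that sum in the first group and 55.2% to 62.4% in the second, so the groups differed in the make-up of the set as well as in its sum.

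Levels of different genes were compared per length, in the deposited FPKM. In the libraries labelled Tmem232+/+ the medians were 887.0 for *Ropn1l*, 716.2 for *Spa17*, 97.3 for *Cabyr*, 55.2 for *Akap3*, 53.9 for *Ropn1*, 37.7 for *Akap4*, 36.8 for *Fsip1*, 14.1 for *Fsip2* and 11.1 for *Fscb*. The ranges over the 4 libraries overlapped between *Ropn1l* and *Spa17* and between neighbours from *Akap3* to *Fsip1*, and they were apart at the other steps. Just 0.166% of the genes of the table had a higher median than *Ropn1l*, and 35.6% a higher one than *Fscb*. The 2 genes that did not pass the test were thus the most abundant of the 9 per length. In the libraries labelled Tmem232-/- the medians of *Fscb* and *Fsip2* were 30.0 and 16.5 FPKM, in the reverse of their order in the other group, and the ranges of the 2 genes were apart in both groups.

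**Figure D5:**
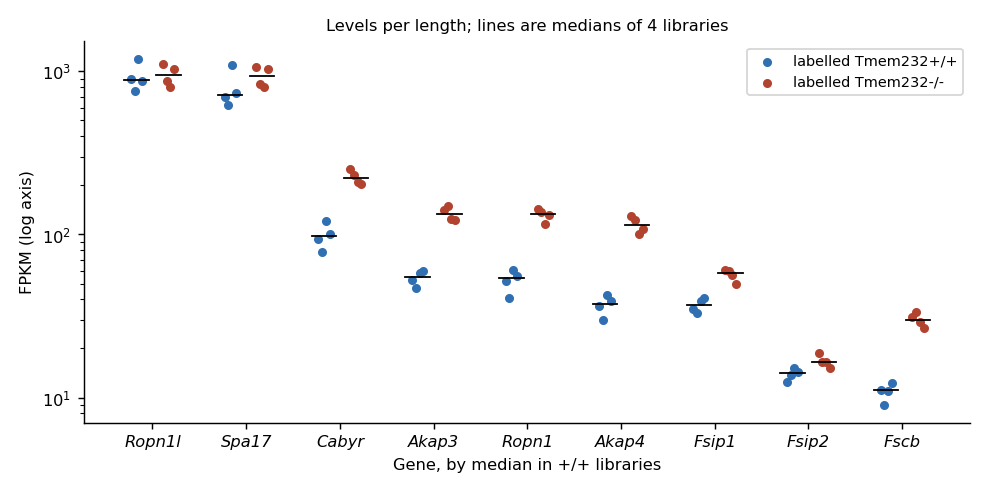
FPKM of the 9 genes on a log axis, with 1 point per library and genes in the order of the median over the libraries labelled Tmem232+/+. *Ropn1l* and *Spa17* stand well above the others, and *Fscb* is the lowest in the libraries labelled Tmem232+/+.

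The sheath binds PKA through its anchors, and the genes of its subunits were counted for comparison. Of 6 subunit genes, 1 was higher and 0 were lower, a share near that of all tested genes (10.3% higher, 1.46% lower), with a median log2 fold change of 0.00. The one was *Prkar2a*, the RIIα subunit that docks to A-kinase anchors, at 26.3 ± 3.86 CPM in the libraries labelled Tmem232-/- against 10.4 ± 1.30 CPM (log2 fold change 1.33, SE 0.128, edgeR adjusted p = 4.81e-05). The lowest value was that of the catalytic subunit gene *Prkacb*, -0.10 (edgeR adjusted p = 0.433).

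Among 12 other A-kinase anchoring protein genes, 4 were higher and 0 were lower, beside 10.3% and 1.46% of all tested genes, with a median of 0.15. *Akap1*, which anchors PKA at mitochondria, had 115.6 ± 13.0 against 42.2 ± 4.73 CPM (log2 fold change 1.45, edgeR adjusted p = 1.98e-05). *Akap14*, an anchor of cilia and flagella, was higher by 0.84 (edgeR adjusted p = 0.00408), *Akap12* by 0.54 (0.00226) and *Akap10* by 0.24 (0.0445), the last of which lost its call in 7 of 19 alternative settings. The lowest value was -0.16 for *Akap5*, which did not pass the test and was 0.01 without Tmem232+/+ replicate 1.

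A list of 13 other genes was made for proteins of the principal piece and partners of sheath proteins, though the product of 1 of them, *Txndc8*, is known from the Golgi and the forming acrosome of spermatids. Of the 13, 9 were higher and 0 were lower, beside 10.3% and 1.46% of all tested genes. At least a 2-fold rise was seen for 6, *Txndc8* included, beside 5.23% of all tested genes, and the median was 0.77. The largest value was that of *Cabs1*, a calcium-binding protein of spermatids, at 57.0 ± 13.3 against 7.77 ± 3.70 CPM (log2 fold change 2.88, edgeR adjusted p = 5.27e-05). The thioredoxin-domain genes *Txndc2* and *Txndc8* were higher by 2.30 and 1.21. The glycolytic genes of the tail *Gapdhs* and *Aldoart1* were higher by 1.49 and 1.26, and *Hk1* by 0.77. *Catsper1*, the sperm calcium channel, was higher by 1.33. *Adcy10*, the soluble adenylyl cyclase that makes cAMP in sperm, had 0.62 (edgeR adjusted p = 0.0361) and the thioredoxin-domain gene *Nme8* had 0.27 (edgeR adjusted p = 0.0124), and these lost their calls in 6 and 2 alternative settings. Not every glycolytic gene passed the test, as *Eno4* was at 0.07 and *Ldhc*, the lactate dehydrogenase of germ cells, at 0.06, both named after their values were seen. *Rhpn1*, which encodes rhophilin, the partner of ropporin, had the lowest value, -0.07.

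The markers of spermatids moved with these results. All 8 of 8 round spermatid markers and 10 of 10 elongating spermatid markers were higher at an edgeR adjusted p under 0.05, with median log2 fold changes of 1.19 and 2.80, where 10.3% of all tested genes were higher. Their summed levels were 586.7 to 742.3 CPM against 224.9 to 349.8 CPM for round spermatids, and 920.8 to 1667.3 CPM against 216.4 to 490.5 CPM for elongating spermatids, with the libraries labelled Tmem232-/- first. The most abundant marker of each list was *Tssk1*, a kinase of spermatids, with a log2 fold change of 1.04 (edgeR adjusted p = 0.000263), and *Smcp*, a protein of the mitochondrial capsule, with one of 1.38 (edgeR adjusted p = 0.00159). Of 8 spermatogonia markers, 3 were lower, where 1.46% of all tested genes were (28 to 1230 genes over the alternatives, against 230), with sums of 189.3 to 208.9 CPM against 231.2 to 258.2 CPM. Spermatocyte markers had sums that overlapped, with 1 of 8 lower, as did those of Sertoli cells, at 0 of 7 called. Peritubular cell markers had sums of 188.9 to 227.0 CPM against 238.4 to 282.7 CPM, with 2 of 4 lower. Markers of Leydig cells (6 tested), macrophages (5), endothelial cells (4), red blood cells (4) and epididymis (2) had 0 calls and sums that overlapped. None of the listed markers in the table was at 0 in all 8 libraries. The part of cell composition in the levels of the fibrous sheath genes was not tested.

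The profile of *Akap4* over the 8 libraries was compared with that of 15061 genes with a mean of at least 1 CPM, by the root mean square difference of log2 CPM after each gene was centred on its mean. The 5 most similar genes outside the 9 were *4931429L15Rik* (0.0432), *Ccdc54* (0.0493), *Galntl5* (0.063), *Spata18* (0.0791) and *Fam71f1* (0.0843). *Fscb* (0.135) and *Ropn1* (0.147) ranked 24 and 35, *Akap3* 73 and *Cabyr* 181, while *Ropn1l* (0.809) ranked 3302. These distances include the difference between the groups and describe the 8 libraries alone.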

How the data were processed

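RNA of whole testis was sequenced from 8 mice, 4 per genotype as labelled. The submitters' processing notes name HISAT, Bowtie2, StringTie, featureCounts and DESeq2 with the build GRCm38.p6. The authors deposited estimated counts without normalization, which are not whole for 10.7% to 11.2% of the genes of a library. They also deposited FPKM, which the authors scaled to transcript length and library size. The authors' mean, log2 fold change, p-value and q-value columns were not used. Counts were rounded and compared in R 4.3.3 with edgeR 4.0.16 (default low-count filter, TMM, quasi-likelihood test, Benjamini-Hochberg over 15787 genes), without covariates. Exact two-sided permutation tests used all 70 arrangements of 8 libraries. Alternatives used DESeq2 1.42.0 and limma 3.58.1, other scalings and filters, FPKM with 1 or 0.1 added, a replicate block and each library left out. Named were the 9 genes, *Tmem232*, the called, lowest and highest genes of the related lists, the most abundant marker of each spermatid list and the 5 genes most like *Akap4* (0.01 CPM added before log2). Members, pairs and lists were chosen with earlier results of these data known. Promoters were RefSeq's and transcripts GENCODE's. The fit was also tested on simulated data, but no outcome is given here and no result rests on it.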

Additional observations from a re-analysis of the deposited data

Results flagged for a closer look

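Of 98 groups of 4 libraries examined for a single library far from the others, 1 was flagged, where chance gives about 4.9. The groups come from the same 8 libraries and are not independent, so few flags do not show that outlying libraries are absent. The summed level of the red blood cell markers was 296.4 CPM in Tmem232+/+ replicate 3, while the other 3 libraries of that group had 533.3 to 577.3 CPM. None of the 9 fibrous sheath genes was flagged.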

How the results depend on the processing

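*Akap4*, *Akap3*, *Fscb*, *Cabyr*, *Ropn1* and *Fsip1* kept their direction and call in all 19 alternatives, with log2 fold changes of 1.57 to 1.77, 1.27 to 1.41, 1.39 to 1.58, 1.11 to 1.33, 1.27 to 1.49 and 0.61 to 0.75. *Fsip2* lost its call with library size alone (0.26), limma-voom (0.30), log2(FPKM + 1) (0.24), log2(FPKM + 0.1) (0.26) and without any library but Tmem232-/- replicate 4 or Tmem232+/+ replicate 3 (0.23 to 0.37 over all 8). *Ropn1l* ranged from -0.03 to 0.24 and *Spa17* from 0.19 to 0.51 with a library left out, and *Spa17* was called at 0.31 with the length covariate. *Tmem232* ranged from 0.21 to 0.32, without its call when Tmem232-/- replicate 1 or 2 or Tmem232+/+ replicate 2 or 4 was left out, and *Akap5* ranged from -0.35 to 0.01, above 0 without Tmem232+/+ replicate 1. *Akap10* (0.20 to 0.26) and *Adcy10* (0.52 to 0.66) lost their calls without Tmem232-/- replicates 1, 2 or 3 or Tmem232+/+ replicates 2 or 4, and *Nme8* (0.27) without Tmem232+/+ replicate 4. Over the same alternatives 6 to 8 of the 9 genes were called higher, beside 1317 to 2125 of all tested genes (1633, or 10.3%, in the fit of the report). Of all genes, 230 were lower, but 131 with DESeq2 size factors, 415 with library size alone, 71 without a filter, 466 and 448 on log2(FPKM + 1) and log2(FPKM + 0.1), 1230 with the length covariate and 37 to 356 with a library left out, a move of over 1.5 times for each but Tmem232+/+ replicate 3. The cause was not tested.

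The replicate numbers did not pair the libraries (correlations of deviations -0.06, 0.07, -0.33 and -0.11), and no library labelled Tmem232-/- was most like its own number. With a replicate block, *Fsip2* (0.30), *Tmem232* (0.26), *Akap10* (0.24), *Adcy10* (0.62) and *Nme8* (0.27) lost their calls and 28 of all genes were lower. Ratios of pairs under the replicate block differed by 1.32, 0.33, 0.90 and -0.37, each with an exact p of 0.125, the smallest that 4 pairs allow. The lowest count of a fibrous sheath gene in a library was 437, for *Ropn1*.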
